A study of Mus musculus with 16 samples.

Results

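Myelin and mature oligodendrocyte genes were followed as a set of 40 genes, listed by symbol and matched to the deposited counts through their Ensembl mouse gene identifiers. They are 40 of the 49671 genes counted, and all 40 passed the filter on low counts that left 18875 genes for testing. The list was grouped by known role into 5 structural proteins of the sheath, 6 tetraspan proteins (which cross the membrane 4 times), 6 lipid and precursor enzymes, 5 transcription factors, 4 other enzymes, 8 genes of cytoskeleton and signalling, and 6 other membrane and secreted proteins.

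Oligodendrocytes wrap axons of the central nervous system in myelin, a stack of membrane rich in galactolipids and cholesterol. The sheath is held together by basic and membrane-spanning proteins, and transcription factors of the Sox, Olig and Myrf families drive the cells from precursor to myelinating stage. In mice the first weeks after birth and adolescence are a period of intense myelination.

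Brain RNA was sequenced in 16 C57BL/6 mice, 1 library per mouse. Pregnant dams received lipopolysaccharide (LPS), a component of the bacterial outer membrane that sets off innate immunity, or saline into the peritoneum on day 16 of gestation. The offspring were described as male and received LPS or saline by the same route on postnatal day 30, and tissue was taken on postnatal day 32. The 4 groups of 4 mice were saline-saline (saline at both times), LPS-saline (LPS to the dam only), saline-LPS (LPS to the offspring only) and LPS-LPS (both). Reading the dam's injection as the one named before the hyphen follows the protocol and is not spelled out by the labels. Litters are not given, so mice may share a dam, and a p-value reflects only how far these mice vary. Coordinates are those of GRCm38. Levels are given as CPM, the counts scaled to a common library size, differences are log2 fold changes with standard errors, and a gene is called where the adjusted p of edgeR's quasi-likelihood test, by the Benjamini-Hochberg method over all tested genes, is under 0.05.

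Gene totals were 25729919 to 38571036 counts per library, and the lowest count of Mbp, the most abundant member, was 152941. The cerebellar marker Gabra6 stayed under 1 CPM in 8 libraries, whereas the remaining 8 had 2.51 to 70.4 CPM. Under 1 CPM were replicates 1, 2 and 3 of saline-saline, replicates 1 and 2 of LPS-saline and of saline-LPS, and replicate 2 of LPS-LPS. More of them were from the prenatal saline than from the prenatal LPS groups, and the libraries do not all hold cerebellar transcripts alike. Gh, growth hormone of the pituitary, was at 502.5 CPM in LPS-LPS 1 and at 44.1 CPM in saline-LPS 1. LPS-LPS 3 had 503 CPM of Xist and 0 CPM of the Y-linked Ddx3y, which goes against its description as male. Results that rest on these libraries are given with and without them. In RNA of mixed brain tissue, fewer oligodendrocytes and less RNA per oligodendrocyte cannot be told apart.

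The labelled tissue carried its myelin markers in every library. Per kilobase of exon, Mbp had the highest mean level over the 16 libraries at 726 CPM per kilobase, followed by Mobp at 249.9, Cnp at 193.0, Cldn11 at 189 and Mal at 129. Mag stood at 85.8, Mog at 73.5 and Tspan2 at 38.6 CPM per kilobase, and the factors Olig1, Sox10 and Olig2 at 89.3, 33.3 and 18.2. The lowest levels were those of Trf, the iron carrier transferrin, at 0.264, Pllp at 1.88 and Sec14l5 at 2.49 CPM per kilobase. Trf had 16 to 47 reads per library, and 63.5% of its exonic bases lie in exons of Gm20425 on the same strand, which held 0 to 1 reads, so the level of Trf is uncertain.

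The question of the prenatal comparison is whether the adolescent brain differs according to what the dam was given. Averaged over both pubertal injections, 14 of 40 members were lower after prenatal LPS and 0 were higher. Over all tested genes 2.92% were called lower and 4.9% higher, 7.82% in either direction. The members called lower were the tetraspan genes Tspan2, Mal, Gjc3 and Cldn11, the lipid enzymes Enpp6 and Ugt8a, the enzymes Adamts4 and Carns1, the cytoskeletal and signalling genes Plekhh1, Sec14l5 and Ermn, the membrane and matrix genes Hapln2 and Tmem88b, and the structural gene Cnp. The log2 difference was below 0 for 36 of 40 members with a median of -0.19, against a median of -0.01 and 51.7% below 0 over all tested genes. Members differed widely among themselves. Tspan2 fell by 0.43 on the log2 scale, while Mbp, the main basic protein of compact myelin, differed by 0.04 and Mobp by -0.0026. In no member did the 8 libraries after prenatal LPS lie wholly below the 8 after prenatal saline (0 of 40, where 0.159% of all genes did so), nor wholly above (0 of 40, 0.747% of all genes).

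**Figure D1:**
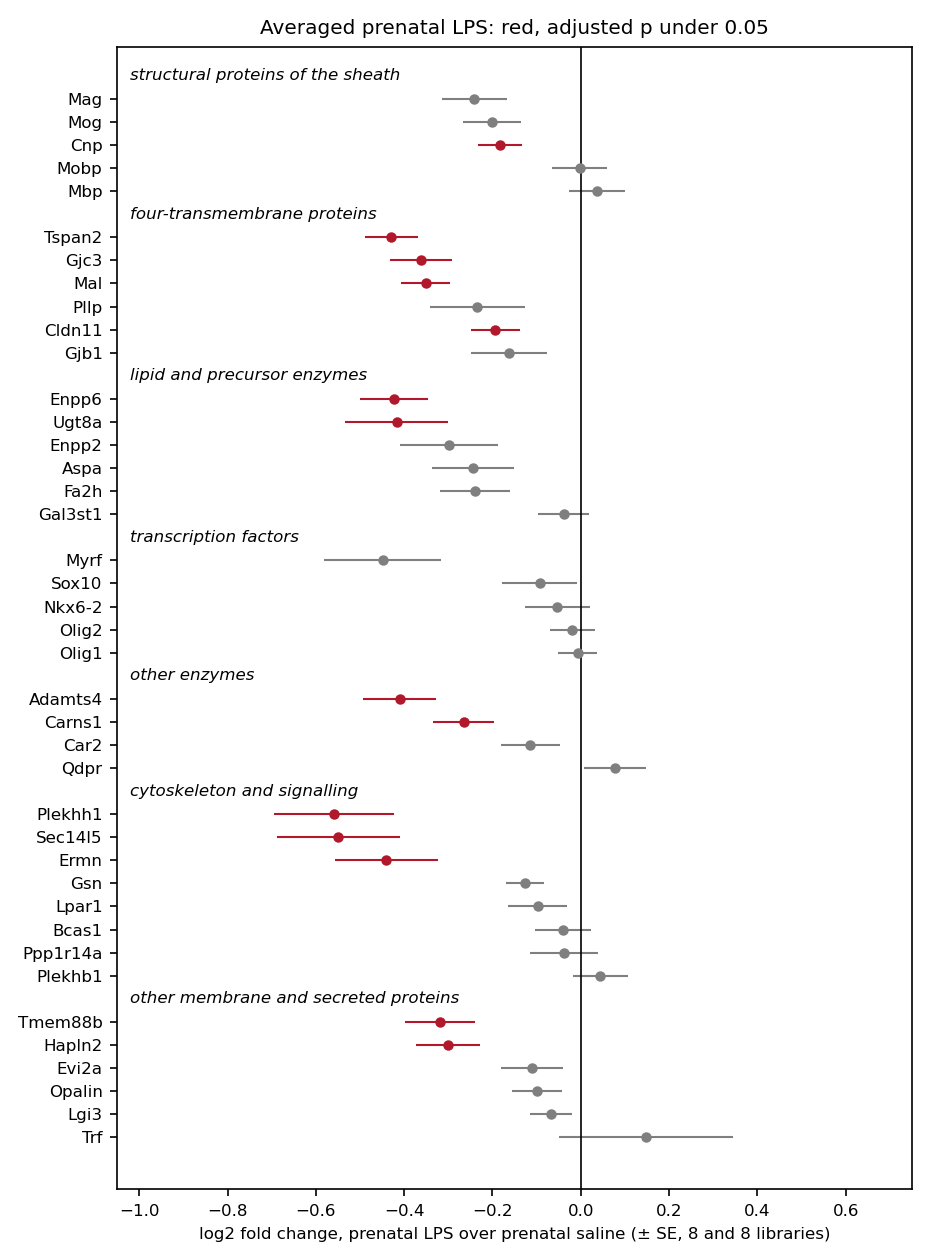
Log2 fold change of each member, prenatal LPS over prenatal saline averaged over both pubertal injections (x axis, points with standard errors, 8 and 8 libraries), in blocks by role (y axis). Red points, 14 of 40, had an adjusted p under 0.05 and all lie below 0; Mbp, Mobp, Olig1 and Olig2 lie within 0.04 of 0.

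Of the 5 structural proteins 1 was called, Cnp, and 4 lay below 0 (median -0.18). Cnp (chr11:100574904-100591729), the cyclic nucleotide phosphodiesterase of uncompacted myelin, stood at 822, 736, 736 and 747 CPM in saline-saline, 752, 646, 815 and 719 CPM in saline-LPS, 669, 593, 653 and 728 CPM in LPS-saline, and 667, 616, 691 and 646 CPM in LPS-LPS. All 8 libraries after prenatal LPS were below the mean after prenatal saline, and LPS-saline did not overlap saline-saline. Its log2 difference was -0.18 ± 0.050 (adjusted p = 0.0301).

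Mbp, which joins the cytoplasmic faces of the compact sheath (chromosome 18), stood at 6743, 5242, 6088 and 5768 CPM in saline-saline, 5519, 5742, 7004 and 6417 CPM in saline-LPS, 6668, 5301, 5872 and 6334 CPM in LPS-saline, and 6559, 6002, 7149.7 and 5928 CPM in LPS-LPS. The groups overlapped fully, with the lowest library in saline-saline and the highest in LPS-LPS. The log2 difference was 0.04 ± 0.063 (adjusted p = 0.785). Mobp (chr9:120149707-120181484), another basic protein of compact myelin, stood at 1795, 1447, 1732 and 1616 CPM in saline-saline, 1591, 1649.6, 2053 and 1819 CPM in saline-LPS, 1805, 1414, 1654 and 1728 CPM in LPS-saline, and 1789, 1673, 1964 and 1650.2 CPM in LPS-LPS. Its lowest library was LPS-saline 2 and its highest saline-LPS 3, so that the groups overlapped, and the log2 difference was -0.0026 ± 0.063 (adjusted p = 0.987).

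Mog (chr17:37010743-37023398), a glycoprotein on the outer surface of the sheath, stood at 147, 119, 141 and 136 CPM in saline-saline, 123, 117, 153 and 137 CPM in saline-LPS, 114, 100.01, 115 and 136 CPM in LPS-saline, and 115, 112, 129 and 112 CPM in LPS-LPS. After prenatal LPS 7 of 8 libraries were below the mean after prenatal saline, the exception being LPS-saline 4. The log2 difference of -0.20 ± 0.065 was not called (adjusted p = 0.0608). Mag, an adhesion protein facing the axon, had 324 to 444 CPM with a median of 367 after prenatal saline and 272 to 369 CPM with a median of 317 after prenatal LPS. Its log2 difference of -0.24 ± 0.073 was not called either (adjusted p = 0.0505).

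With the replicate number as a block, which takes out what same-numbered libraries share, 20 members were called instead of 14. The 6 added were Mag (adjusted p = 0.00176), Myrf (0.00502), Mog (0.00902), Fa2h (0.0168), Gsn (0.0349) and Aspa (0.0438), and over all genes 5.76% were called lower. Mbp, Mobp, Sox10, Olig1 and Olig2 were not called with the block either (lowest adjusted p = 0.326, Sox10). With the block and the GC content and length correction together 22 were called (2.45% of all genes lower), among them Sox10 (adjusted p = 0.049), Nkx6-2 (0.0235) and Olig1 (0.0104), and Mbp, Mobp and Olig2 were not.

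The tetraspan proteins had 4 of 6 called and all 6 below 0, with a median of -0.29. Tspan2 (chr3:102734529-102801513), a tetraspanin of oligodendrocytes, stood at 233, 226, 215 and 232 CPM in saline-saline, 213, 157, 209 and 201 CPM in saline-LPS, 157, 144, 159 and 192 CPM in LPS-saline, and 148, 149, 153 and 147 CPM in LPS-LPS. Every library of LPS-saline and LPS-LPS was below every library of saline-saline, and of the prenatal saline mice saline-LPS 2 reached into their range. Tspan2 differed by -0.43 ± 0.060 on the log2 scale (adjusted p = 0.000478). Mal (chr2:127633226-127656695), a proteolipid that sorts membrane to the sheath, stood at 459, 400.03, 423 and 424 CPM in saline-saline, 431, 316, 396 and 359 CPM in saline-LPS, 329, 292, 321 and 361 CPM in LPS-saline, and 310.03, 301, 309.9 and 289 CPM in LPS-LPS. Both groups after prenatal LPS again lay below all of saline-saline, with saline-LPS 2 and 4 the exceptions among the prenatal saline mice. Mal differed by -0.35 ± 0.055 (adjusted p = 0.00143).

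Gjc3 (chr5:137953461-137963098), a connexin of oligodendrocytes, stood at 75.3, 74.4, 74.8 and 85.04 CPM in saline-saline, 74.9, 58.3, 81.4 and 70.1 CPM in saline-LPS, 61.7, 48.6, 59.8 and 72.2 CPM in LPS-saline, and 56.6, 54.04, 55.8 and 54.2 CPM in LPS-LPS. All LPS-LPS libraries were below all saline-LPS libraries and LPS-saline below saline-saline, while LPS-saline 1, 3 and 4 lay within the range of saline-LPS. Gjc3 differed by -0.36 ± 0.070 on the log2 scale (adjusted p = 0.00493). Cldn11, the claudin of the tight junctions between myelin layers, had 313 to 413 CPM with a median of 386 after prenatal saline and 285 to 355 CPM with a median of 332 after prenatal LPS, a log2 difference of -0.19 ± 0.056 (adjusted p = 0.0365). Gjb1, the other connexin, and Pllp, a relative of Mal, differed by -0.16 and -0.23 and were not called. The exons of Pllp overlap those of a gene on the opposite strand over 54.2% of their bases, and Pllp reached only 2.93 to 5.36 CPM.

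**Figure D2:**
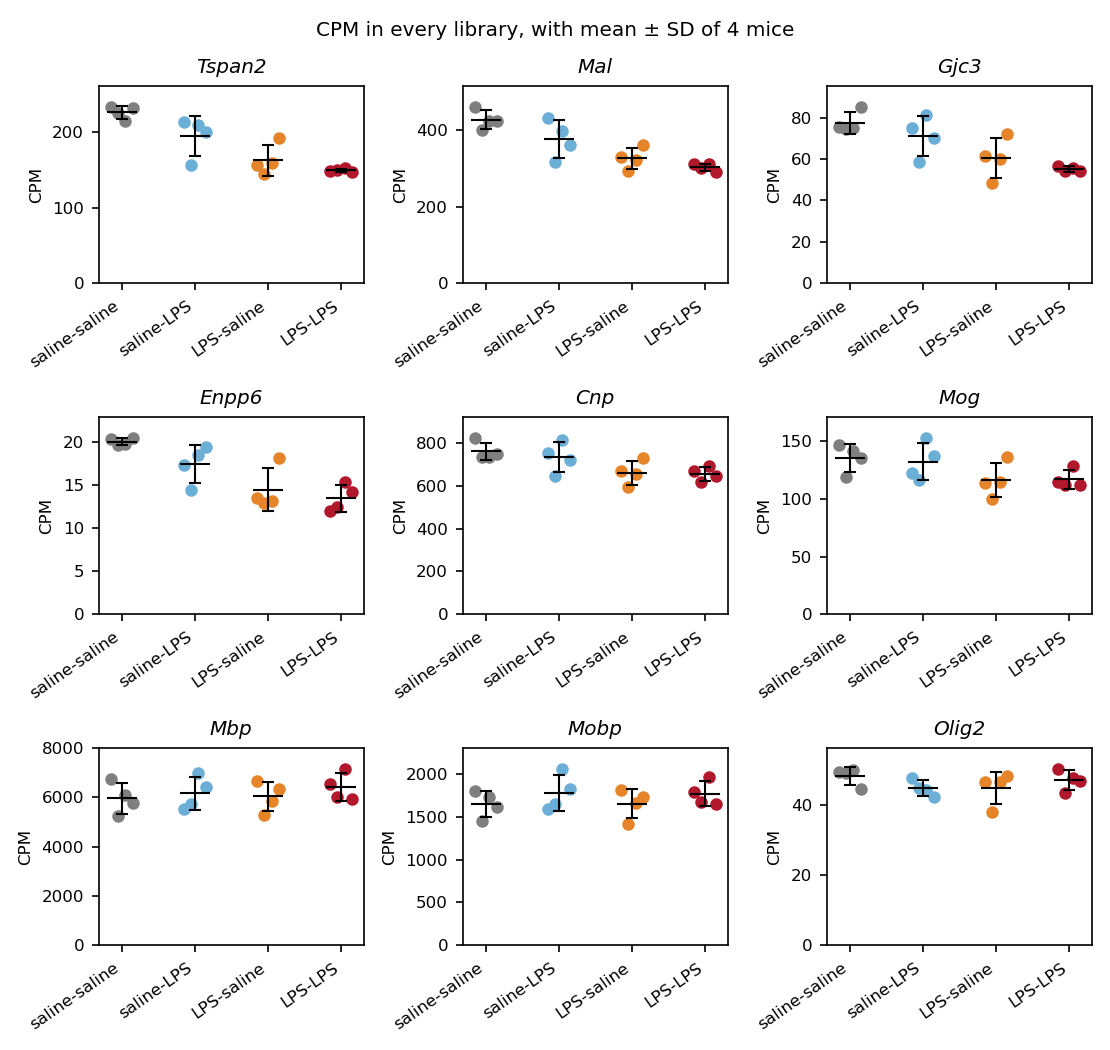
CPM in every library (points) with the mean and SD of 4 mice (black bars) for 9 members, by group on the x axis; each y axis starts at 0. Tspan2, Mal, Gjc3 and Enpp6 are lower in LPS-saline and LPS-LPS than in saline-saline without overlap, and Mbp, Mobp and Olig2 overlap in all 4 groups.

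Among the 6 lipid and precursor enzymes, 2 were called and all 6 lay below 0 (median -0.27). Enpp6 (chr8:46986887-47096762), a choline phosphodiesterase of oligodendrocytes that have begun to myelinate, stood at 20.4, 19.6, 19.8 and 20.5 CPM in saline-saline, 17.3, 14.5, 18.5 and 19.4 CPM in saline-LPS, 13.5, 12.9, 13.2 and 18.2 CPM in LPS-saline, and 11.99, 12.4, 15.4 and 14.2 CPM in LPS-LPS. The 4 saline-saline libraries lay within 1 CPM of each other and above all of LPS-saline and LPS-LPS. Its log2 difference was -0.42 ± 0.077 (adjusted p = 0.00346). Ugt8a, which makes galactosylceramide, had 64.99 to 125 CPM with a median of 103 after prenatal saline and 62.9 to 108 CPM with a median of 70.7 after prenatal LPS. It fell by 0.42 ± 0.117 on the log2 scale (adjusted p = 0.0432), the largest adjusted p of the 14. Enpp2, the lysophospholipase autotaxin also made by choroid plexus, Aspa, which splits N-acetylaspartate, and Fa2h, which hydroxylates the fatty acids of galactolipids, differed by -0.30, -0.25 and -0.24 and were not called. Gal3st1, which turns galactosylceramide into sulfatide, differed by -0.04 and lay at 16.9 to 22.98 CPM throughout.

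The bases upstream of the start of Mal, Enpp6 and Gjc3 are shown because these are the called genes of smallest p after Tspan2 and have a RefSeq start (GRCm38.p6) whose upstream window overlaps no annotated exon, as that of Tspan2 does. Each run is 250 bases, read 5′ to 3′ on the gene's strand and ending at the base before the start. The window of Mal is chr2:127656696-127656945 on the minus strand, that of Enpp6 chr8:46986637-46986886 on the plus strand and that of Gjc3 chr5:137963099-137963348 on the minus strand. Capitals mark a match to a searched motif.
Mal: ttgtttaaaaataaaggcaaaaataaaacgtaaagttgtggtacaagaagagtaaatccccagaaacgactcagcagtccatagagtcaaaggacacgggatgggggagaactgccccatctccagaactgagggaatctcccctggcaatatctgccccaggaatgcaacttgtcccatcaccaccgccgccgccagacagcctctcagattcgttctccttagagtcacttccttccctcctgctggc
Enpp6: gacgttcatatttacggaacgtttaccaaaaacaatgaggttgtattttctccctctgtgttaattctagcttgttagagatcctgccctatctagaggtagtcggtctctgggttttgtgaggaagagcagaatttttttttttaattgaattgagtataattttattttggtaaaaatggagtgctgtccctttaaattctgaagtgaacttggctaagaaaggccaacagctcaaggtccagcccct
Gjc3: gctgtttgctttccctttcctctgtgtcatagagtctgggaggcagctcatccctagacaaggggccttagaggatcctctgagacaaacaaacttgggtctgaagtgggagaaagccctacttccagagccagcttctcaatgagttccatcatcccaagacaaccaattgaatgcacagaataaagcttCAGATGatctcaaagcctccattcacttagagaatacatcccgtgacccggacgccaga
The motifs searched on both strands were ACAAAG (a core of Sox sites), CTGGCAC and CTGGTAC (both of MYRF), and the E-boxes CAGATG and CAGCTG, none of which contains another. Mal and Enpp6 held 0 matches, and Gjc3 held CAGATG 59 bases before its start. Of the 27 members in the table of 27025 genes, CAGATG was in 29.6% (8 members, Tspan2 among them) against 14.5% of all genes. ACAAAG was in 18.5% of members and 16.5% of all genes, and CAGCTG in 11.1% and 12.8%. CTGGCAC was in 18.5% (Mag, Cnp, Lpar1, Sec14l5 and Hapln2) against 4.14%, and CTGGTAC in 3.70% (Mog) against 1.80%. A match describes letters in the window and is no measured binding site, and no match says only that these letters are not in this window.

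None of the 5 transcription factors was called from the deposited counts without block or correction, although 5 of 5 lay below 0 (median -0.05). Sox10 (chr15:79154908-79165240), which is needed throughout the lineage, stood at 112, 123, 99.4 and 95.2 CPM in saline-saline, 129.8, 88.4, 105 and 87.9 CPM in saline-LPS, 119, 93.6, 91.5 and 91.5 CPM in LPS-saline, and 109.8, 89.3, 96.5 and 96.2 CPM in LPS-LPS. The highest library of each group was replicate 1 except in saline-saline, where it was replicate 2, and the groups overlapped. The log2 difference was -0.09 ± 0.086 (adjusted p = 0.569). Olig2 (chr16:91225457-91228677), a factor of precursors and mature cells alike, stood at 49.3, 48.99, 49.9 and 44.4 CPM in saline-saline, 47.7, 44.8, 44.1 and 42.1 CPM in saline-LPS, 46.5, 37.8, 46.4 and 48.02 CPM in LPS-saline, and 50.05, 43.3, 47.5 and 46.8 CPM in LPS-LPS. Its 4 group means ran only from 44.7 to 48.1 CPM, and the log2 difference was -0.02 ± 0.051 (adjusted p = 0.872). Olig1 differed by -0.01 and Nkx6-2, a homeodomain factor of myelinating cells, by -0.05. Myrf, the factor that switches on myelin genes in maturing cells, was the exception in size with -0.45 ± 0.132 (adjusted p = 0.0543), from 52.4 to 101 CPM with a median of 72.4 after prenatal saline to 43.02 to 65.9 CPM with a median of 52.9 after prenatal LPS. Its highest library was saline-LPS 1 at 101 CPM, with the other saline-LPS libraries at 52.4 to 64.4 CPM.

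Of the 4 other enzymes 2 were called. Adamts4 (chr1:171250421-171260637), a matrix-cleaving protease of mature oligodendrocytes, stood at 57.8, 56.9, 51.5 and 54.04 CPM in saline-saline, 61.5, 40.1, 49.3 and 43.4 CPM in saline-LPS, 42.1, 35.1, 37.7 and 48.6 CPM in LPS-saline, and 42.02, 38.9, 34.4 and 33.3 CPM in LPS-LPS. LPS-saline and LPS-LPS lay below all saline-saline libraries, while saline-LPS 2 and 4 lay among them. The log2 difference was -0.41 ± 0.084 (adjusted p = 0.00753). Carns1 (chr19:4164324-4175479), which makes carnosine, stood at 14.2, 13.1, 12.6 and 13.2 CPM in saline-saline, 15.1, 12.1, 13.2 and 12.02 CPM in saline-LPS, 11.6, 12.3, 9.56 and 10.5 CPM in LPS-saline, and 12.1, 11.4, 10.8 and 9.46 CPM in LPS-LPS. Its 8 libraries after prenatal LPS were all under the prenatal saline mean, saline-LPS 2 and 4 lay among them, and the log2 difference was -0.27 ± 0.069 (adjusted p = 0.0235). Its exons share 29.7% of their bases with a gene on the same strand and 40.3% with a gene on the other strand, so its reads are uncertain. Car2, a carbonic anhydrase, differed by -0.11 and Qdpr, which regenerates tetrahydrobiopterin, by 0.08, neither called.

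In the cytoskeletal and signalling group 3 of 8 were called and 7 lay below 0 (median -0.11). Plekhh1, a protein with pleckstrin and FERM domains, had the largest log2 difference of the 40 members at -0.56 ± 0.136 (adjusted p = 0.0249), from 31.7 to 64.04 CPM with a median of 48.2 to 24.4 to 39.5 CPM with a median of 30.2. Its value in saline-LPS 1 was 64.0 CPM against 31.7 to 36.4 CPM in the other saline-LPS libraries. Sec14l5, of the Sec14 lipid-transfer family, followed at -0.55 ± 0.140 (adjusted p = 0.0263), and Ermn, the actin-binding ermin, at -0.44 ± 0.117 (adjusted p = 0.0333). The other 5, none called, were Gsn, the actin-severing gelsolin (-0.13), Lpar1, a lysophosphatidic acid receptor (-0.10), Bcas1, of early myelinating cells (-0.04), Ppp1r14a, a phosphatase inhibitor (-0.04), and Plekhb1 (0.04).

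The other membrane and secreted proteins had 2 of 6 called. Hapln2 (chr3:88021750-88027583), a link protein of the matrix at nodes of Ranvier, stood at 38.1, 34.7, 42.04 and 44.7 CPM in saline-saline, 43.2, 31.3, 44.6 and 35.3 CPM in saline-LPS, 31.7, 32.1, 29.2 and 35.8 CPM in LPS-saline, and 34.5, 28.3, 31.9 and 31.5 CPM in LPS-LPS. Libraries after prenatal LPS were all under the prenatal saline mean, and saline-saline 2 and saline-LPS 2 and 4 lay among them. The log2 difference was -0.30 ± 0.073 (adjusted p = 0.0171). Tmem88b (chr4:155781591-155785874), a membrane protein of mature oligodendrocytes, stood at 87.6, 83.04, 83.5 and 85.2 CPM in saline-saline, 91.5, 57.5, 82.3 and 75.1 CPM in saline-LPS, 71.5, 54.5, 67.6 and 79.00 CPM in LPS-saline, and 64.00, 60.9, 61.5 and 59.2 CPM in LPS-LPS. LPS-LPS spanned less than 5 CPM and lay below all saline-saline libraries, with a log2 difference of -0.32 ± 0.079 (adjusted p = 0.0216). Opalin, a glycoprotein of central myelin, Evi2a and the secreted Lgi3 differed by -0.10, -0.11 and -0.07, and Trf by 0.15, none called.

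Members were also set against Mbp within each library, an alternative chosen after seeing the data. Per 1000 CPM of Mbp, Tspan2 stood at 27.3 to 43.1 (median 34.9) after prenatal saline and at 21.3 to 30.3 (median 24.9) after prenatal LPS. Mal stood at 55.0 to 78.1 (median 68.8) and 43.3 to 56.9 (median 49.7), and Cnp at 112 to 140.3 (median 121) and 96.7 to 115 (median 106). Olig2 stood at 6.29 to 9.35 (median 7.75) and 6.65 to 7.91 (median 7.397). For no member did these ratios lie wholly lower after prenatal LPS (0.0159% of all genes did).

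The averaged count of 14 depended on single libraries. It was 7 without LPS-saline 3 or without LPS-LPS 4, 8 without LPS-LPS 3 (the library with Xist), 9 without LPS-saline 2, 11 to 14 without any of 10 others, and 17 and 18 without LPS-saline 4 and saline-LPS 2. The share of all genes called lower was 1.84%, 1.71%, 1.15% and 1.61% without LPS-saline 3, LPS-LPS 4, LPS-LPS 3 and LPS-saline 2, against 2.92% with all libraries. In the same 4 fits the median log2 difference of the members was -0.18, -0.18, -0.20 and -0.16, against -0.19. Without LPS-LPS 1 and 3 together, also chosen after seeing the data, it was 5 (Tspan2, Mal, Gjc3, Enpp6 and Adamts4; 0.22% of all genes lower), with a median of -0.23. The same 7 genes were called in every one of the 16 fits that left out 1 library: Tspan2, Mal, Gjc3, Enpp6, Adamts4, Hapln2 and Tmem88b. Within the 8 libraries with Gabra6 under 1 CPM, where LPS-LPS 2 is alone of its group, 35 of 40 members lay below 0 with a median of -0.21. Within the other 8 libraries, where saline-saline 4 is alone of its group, 32 lay below 0 with a median of -0.16. Counts of calls are not given for these splits.

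The members of a library tended to move together within a group. In LPS-saline, replicate 2 held the lowest value of 28 of 40 members and replicate 4 the highest of 28. In saline-LPS, replicate 2 was the lowest for 28 and replicate 3 the highest for 21, and saline-saline 1 was the highest for 28. A library's median difference from the others of its group was -0.26 in saline-LPS 2, -0.25 in LPS-saline 2 and 0.23 in LPS-saline 4 on the log2 scale, against a median log2 difference of -0.19 between the prenatal groups. The summed levels of thalamus and midbrain markers and of brainstem markers were also lowest in replicate 2 of LPS-saline and of saline-LPS and highest in LPS-saline 4 and saline-LPS 3. For cortex and striatum markers the order was the other way in part, with the highest sums of these groups in LPS-saline 2 and saline-LPS 2.

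**Figure D3:**
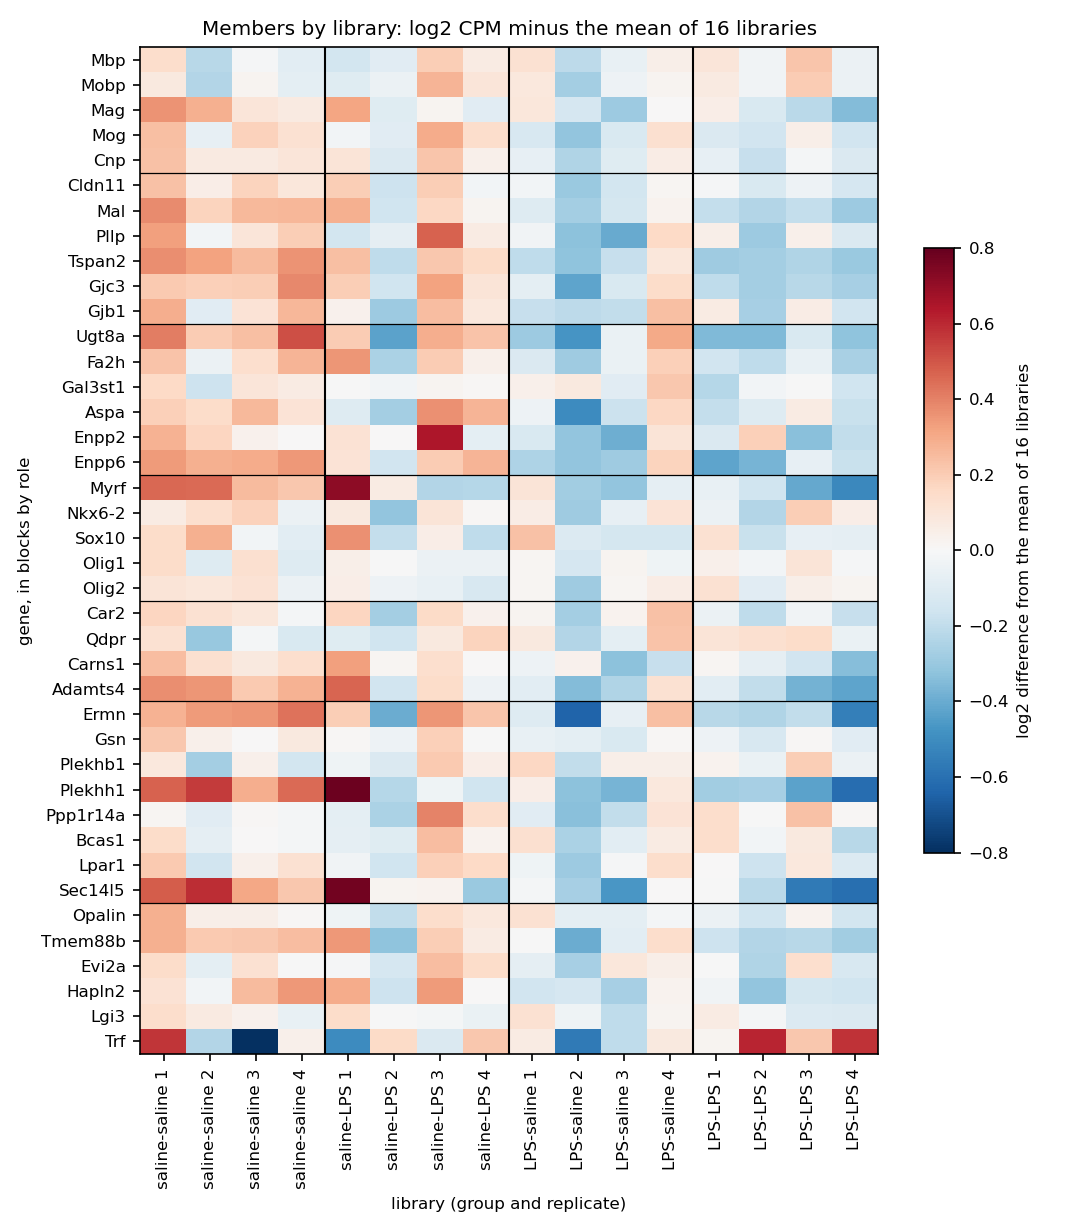
Log2 CPM of each member (rows, in blocks by role) in each library (columns, by group) minus the member's mean over 16 libraries; red is higher and blue lower, with the colour scale limited to 0.8 in each direction. Saline-saline is mostly red and the groups with prenatal LPS mostly blue for Tspan2, Mal, Gjc3 and Enpp6, while LPS-saline 2 and saline-LPS 2 are blue for most members.

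The prenatal effect was then read in each pubertal background on its own. Before pubertal saline, LPS-saline against saline-saline, 2 members were lower, Tspan2 by 0.47 on the log2 scale (adjusted p = 0.0258) and Mal by 0.39 (adjusted p = 0.0427), where 0.0318% of all genes were called lower. In this pair 13 members lay without overlap below saline-saline (3.95% of all genes) and 0 above it (5.17%). Before pubertal LPS, LPS-LPS against saline-LPS, Tspan2 alone was lower, by 0.38 (adjusted p = 0.0401; 0.0477% of all genes lower), and 0 members were higher (0.562%; 0.609% in either direction). Here 4 members lay without overlap below saline-LPS (Mal, Tspan2, Gjc3 and Plekhh1; 2.98% of all genes) and 0 above it (4.96%). These comparisons share no library: 35 and 32 of 40 members lay below 0 with medians of -0.22 and -0.15, and 30 of 40 lay below 0 in both (36.7% of all genes did).

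Same-numbered libraries of these pairs deviated together, and with the replicate number as a block the counts were 9 and 4, where the shares of all genes called lower also rose, to 0.662% and 0.334%. Before pubertal saline the added members were Mag, Cldn11, Gjc3, Enpp6, Myrf, Adamts4 and Sec14l5, and before pubertal LPS they were Mal, Gjc3 and Enpp6. Without single libraries the first count ran from 0 to 7 and was 0 without any of saline-saline 1, 2 or 4 or LPS-saline 1, 2 or 3. The share of all genes called lower ran from 0% to 0.752%, the latter at the count of 7. The other count ran from 0 to 4 and was 0 without any of 12 libraries, every LPS-LPS library among them. Its share of all genes ran from 0% to 0.115% and was 0.11% at the count of 4.

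**Figure D4:**
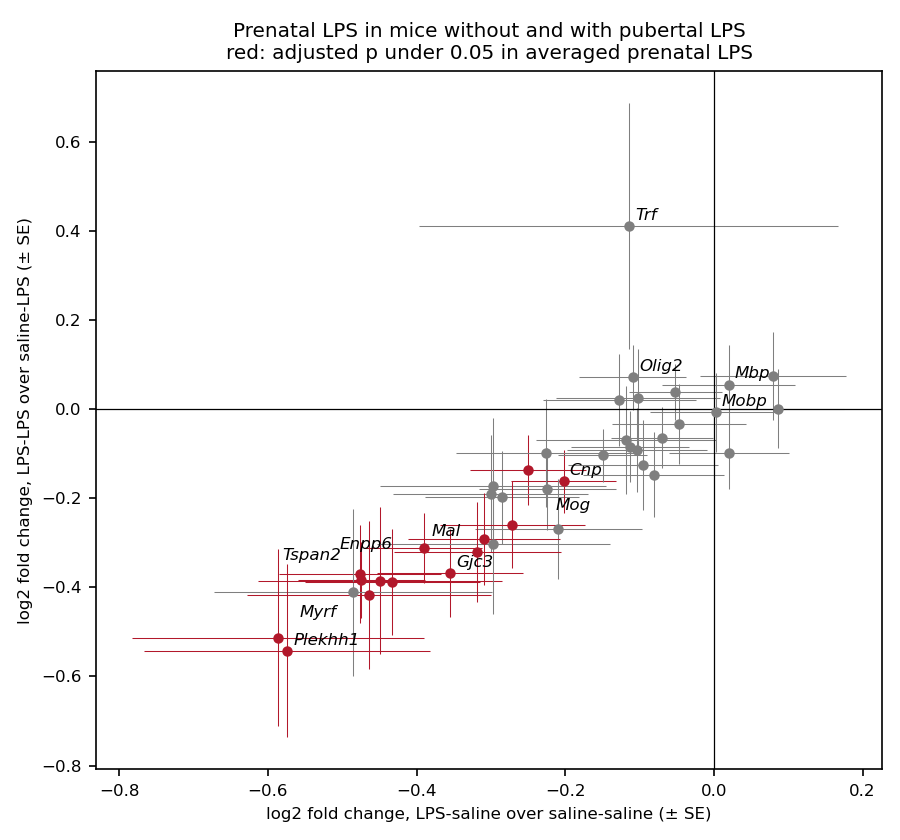
Log2 fold change with standard error of each member for prenatal LPS before pubertal saline (x axis, LPS-saline over saline-saline) and before pubertal LPS (y axis, LPS-LPS over saline-LPS), 4 and 4 libraries each; red points were called in the averaged comparison. Of 40 members 30 lie below 0 on both axes, and Trf, with 16 to 47 reads, lies alone at the top.

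Mice with both exposures were compared with mice with none. Of 40 members 11 were lower in LPS-LPS than in saline-saline and 0 higher, where 2.29% of all genes were lower, 4.27% higher and 6.56% either. On the log2 scale Tspan2 fell by 0.60 ± 0.085 (adjusted p = 0.0012), Mal by 0.50 ± 0.079 (adjusted p = 0.00235) and Enpp6 by 0.57 ± 0.109 (adjusted p = 0.00566). The other 8 were Gjc3, Adamts4, Tmem88b, Plekhh1, Ermn, Ugt8a, Sec14l5 and Mag, with log2 differences from -0.36 (Mag) to -0.84 (Plekhh1). In 19 members LPS-LPS lay wholly below saline-saline (7.81% of all genes) and in 0 wholly above (9.63%). Mbp and Mobp each differed by 0.10 and were not called. Without single libraries the count was 4 (LPS-LPS 3) to 14 (saline-LPS 1), 5 without saline-saline 2, saline-saline 4 or LPS-LPS 4, and 7 without LPS-LPS 2. The share of all genes called lower was 0.335% without LPS-LPS 3 and 4.46% without saline-LPS 1. It was 0.533%, 0.533%, 0.763% and 1.73% without saline-saline 2, saline-saline 4, LPS-LPS 4 and LPS-LPS 2. Without LPS-LPS 1 and 3 together the count was 0, as it was for all genes called lower (0%). In that fit 34 of 40 members lay below 0 with a median of -0.27, against 33 and -0.22 with all libraries.

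No member was called for pubertal LPS, 2 days after the injection. By edgeR's quasi-likelihood test 0 of 40 members and 0.0% of all genes passed after prenatal saline, after prenatal LPS and averaged. DESeq2 called 0 members in each, and its share of all genes is not given here. At an unadjusted p under 0.05 by edgeR's test there were 2 members after prenatal saline (Tspan2 at -0.22 and Mal at -0.18), 0 after prenatal LPS and 2 averaged. Of all 18875 tested genes there were 535, 756 and 947 in the same order. Averaged over the dam's injection, Tspan2 differed by -0.17 ± 0.060 (adjusted p = 0.908) and Mal by -0.15 ± 0.055 (adjusted p = 0.944). Tspan2 and Enpp6 were the 2 members that lay without overlap lower in saline-LPS than in saline-saline (0.689% of all genes), and 0 lay higher (0.853%). After prenatal LPS 0 members lay without overlap lower (1.69%) or higher (2.04%). Below 0 lay 32 of 40 members after prenatal saline (median log2 difference -0.06; all genes 0.00) and 23 after prenatal LPS (median -0.01; all genes -0.00). Mobp differed by a log2 of 0.11 after prenatal saline and 0.10 after prenatal LPS, and Mbp by 0.05 and 0.08.

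The interaction is the difference between the pubertal effects with and without prenatal LPS. By edgeR's quasi-likelihood test it gave 0 of 40 members and 0.0% of all genes. Of the members 0 had an unadjusted p under 0.05 by this test, against 402 of all 18875 tested genes. DESeq2 called 0 members, and its share of all genes is not given here. The smallest p of a member by edgeR's quasi-likelihood test was that of Olig2 (log2 0.18 ± 0.102, adjusted p = 0.9998). For Tspan2 the interaction was 0.09 ± 0.120 and for Mal 0.08 ± 0.111, so the prenatal differences of these genes in the pubertal backgrounds were not shown to differ, at a standard error of about 0.1 log2 units.

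Transcript length moved with the prenatal groups. The libraries' deviations from the mean correlated across genes with exonic length at a Spearman rho of -0.0495 to 0.327 after prenatal saline and of -0.368 to -0.0454 after prenatal LPS, a description across genes of each library. Over all tested genes the median exonic length was 8256 bases for those called lower and 2419.5 for those called higher. Among members it was 4440.5 bases for the 14 called lower and 3029.5 for the other 26, with Mbp (8469 bases), Mobp (6849) and Myrf (8562) long and not called. After a correction for GC content and length fitted within libraries, 17 members were lower, 12 of the 14 among them, and 1.37% of all genes. Ugt8a (adjusted p = 0.085) and Ermn (0.0696) were lost and Mag, Mog, Myrf, Olig1 and Gsn were added.

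The correction lowered the values of several short members. Olig1 (2162 bases) went from -0.01 to -0.15 (adjusted p = 0.0291), Olig2 from -0.02 to -0.12, and Nkx6-2 from -0.05 to -0.24, the latter pair not called. Tspan2, Mal, Gjc3 and Enpp6 stayed called at -0.40, -0.38, -0.34 and -0.39. Mbp and Mobp were at 0.10 and 0.02. The part of length in the differences was not tested further.

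**Figure D5:**
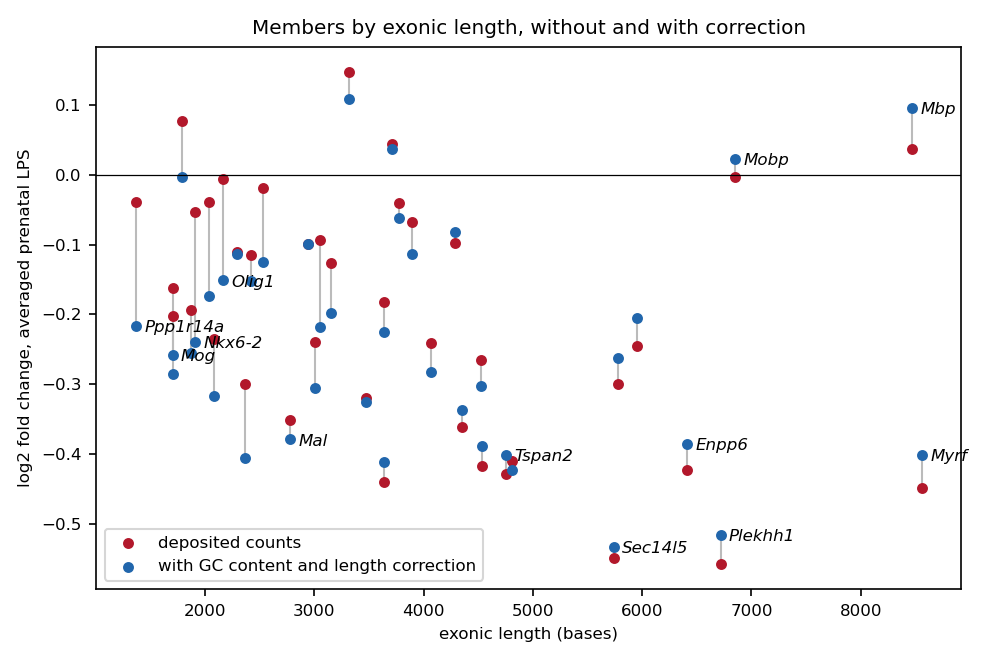
Log2 fold change of averaged prenatal LPS (y axis) against exonic length in bases (x axis) for the 40 members, from the deposited counts (red) and after correction for GC content and length (blue), joined by grey lines. Short members such as Olig1, Nkx6-2 and Ppp1r14a move down, while Tspan2, Enpp6, Sec14l5 and Plekhh1 keep differences of -0.39 or below.

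Other genes of the lineage and of its axonal partners gave a wider view of the averaged prenatal comparison. These lists and those of other cells and regions below are given without the GC content and length correction. Over all tested genes 2.92% were called lower, with a median exonic length of 8256 bases, and 4.9% higher, with a median of 2419.5 bases. At an unadjusted p under 0.05 there were 4379 of all 18875 tested genes. The part of length in these lists was not tested. Of 20 further mature oligodendrocyte genes 6 were lower and 1 higher, with 19 below 0 and a median of -0.18. Gpr37, an orphan receptor of myelinating cells, fell by 0.32 on the log2 scale (adjusted p = 0.0108) and Nipal4, a membrane protein, by 0.40 (adjusted p = 0.0116), while Apod, a lipid-binding apolipoprotein, rose by 0.25 (adjusted p = 0.0126). Of 10 genes of newly forming oligodendrocytes 0 were called by edgeR's quasi-likelihood test (4 at an unadjusted p under 0.05), and the smallest p was that of Itpr2 (-0.28, adjusted p = 0.0762). Of 10 precursor genes 8 lay below 0 with a median of -0.16, and 9 had an unadjusted p under 0.05. Called were Sox6 (-0.22) and Ptprz1 (-0.20) lower and Cspg5 (0.18) and C1ql1 (0.19, named after its value was seen) higher.

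Of 12 axonal genes at nodes and paranodes 4 were lower and all 12 lay below 0 (median -0.14). The potassium channel Kcna1 fell by 0.38 (adjusted p = 0.00909), the node anchor Ank3 by 0.21 and the adhesion gene Nfasc, used by axon and glia, by 0.33. Of 22 genes of cholesterol synthesis 2 were lower (Lss by 0.19 and Sc5d by 0.16), 1 was higher (Pmvk by 0.19) and 16 lay below 0. Of 8 tested Schwann cell markers 0 were called by edgeR's quasi-likelihood test, with 0 at an unadjusted p under 0.05. Over all tested genes 4379 of 18875 had such a p.

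Markers of other cells and regions differed between the prenatal groups only in part, where 2.92% of all genes were called lower and 4.9% higher. Of 10 microglia genes 5 were higher, led by C1qb (0.51, adjusted p = 1.89e-05). Their summed level was 267 to 373 CPM in saline-saline, 286 to 382 CPM in saline-LPS, 328 to 426 CPM in LPS-saline and 368 to 421 CPM in LPS-LPS. Of 10 astrocyte genes Slc1a2 and Gjb6 were lower and Gfap was higher, and of 10 neuronal genes Tubb3 and Slc17a7 were higher.

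Of 10 thalamus and midbrain genes 1 was lower (Chat, by 0.43), 8 lay below 0 and the median was -0.15. Their summed level was 293 to 358 CPM in saline-saline, 249.7 to 371 CPM in saline-LPS, 256 to 363 CPM in LPS-saline and 256 to 297 CPM in LPS-LPS. Of 6 tested brainstem genes 1 was lower (Glra1, by 0.95). All 10 listed genes summed to 5.85 to 42.6, 4.69 to 46.5, 3.58 to 37.7 and 8.07 to 33.8 CPM in the same group order. The cortex and striatum list and the cerebellar granule list had 0 of 10 genes called each by edgeR's quasi-likelihood test. At an unadjusted p under 0.05 there was 1 in each, against 4379 of all 18875 tested genes. Of 6 tested pituitary genes 1 was higher (Chga, by 0.14). The part of brain regions and of cell composition in the members' differences was not tested.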

How the data were processed

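Brain RNA of 16 mice was sequenced, and the authors deposited 1 table of raw counts per gene for each library. Per the submitters' processing notes, STAR 2.5.2b, HTSeq 0.11.2 and GRCm38 were used. The strand setting, annotation release and filters were not given in the sources used here, so where genes overlap on either strand their reads may be mixed. Rows that name no gene were left out of library sizes: reads in no feature were 8.37% to 11.0% of each table, ambiguous reads 5.11% to 5.48% and reads not aligned uniquely 3.18% to 3.90%. Symbols came from GENCODE M21, which matched 49412 gene identifiers and not 259.

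Counts were filtered with filterByExpr (18875 genes), scaled by TMM and fitted over all 4 groups with edgeR's quasi-likelihood test (edgeR 4.0.16, limma 3.58.1, R 4.3.3), with Benjamini-Hochberg adjustment and a threshold of 0.05. The 8 comparisons were prenatal LPS in each pubertal background and averaged, pubertal LPS likewise, both exposures against none, and the interaction. Alternatives were DESeq2 1.42.0, other scaling, no filter, a block for replicate number, a GC content and length correction, Gabra6 as a covariate, splits at 1 CPM of Gabra6, a fit of the compared groups alone and leaving out each library. The script was tested on simulated data. The biological coefficient of variation was 10.4%, and none of the 24 pairs of libraries within a group agreed within counting noise. The labels describe no molecular identifiers, so depth covers counting error only.

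Deviations from group means of same-numbered libraries correlated at 0.115 to 0.575 before pubertal saline and at 0.284 to 0.365 before pubertal LPS over 15230 genes. For pubertal LPS after prenatal LPS they correlated at 0.149 to 0.366. The numbers were used as pairs only in the alternative with the replicate block. Counts and adjusted p-values given without mention of the block come from fits that leave this pairing out. All 40 members are named. Full statistics go to the called members with the 8 smallest p-values and to Mbp, Mog, Mobp, Cnp, Sox10 and Olig2. Outside the list only some of the called genes are named, without standard errors, and an adjusted p is given for few of them. Members and lists were chosen with earlier results of these data known.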

Additional observations from a re-analysis of the deposited data

Results flagged for a closer look

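For each member and group of 4 mice, the library farthest from the rest was examined, 160 groups in all, and chance alone singles out about 1 in 20 groups. In 12 of them 1 library stood apart, its gap to the nearest other passing Dixon's critical value at 95%. Higher than the rest were Cnp in saline-saline 1 (822 CPM, others 736 to 747), Opalin in saline-saline 1 (41.0 CPM, others 33.8 to 34.7), Gjc3 in saline-saline 4 (85.0 CPM, others 74.4 to 75.3), Gjb1 in LPS-saline 4 (25.5 CPM, others 18.6 to 18.95), Enpp6 in LPS-saline 4 (18.2 CPM, others 12.9 to 13.5) and Sox10 in LPS-saline 1 (119 CPM, others 91.5 to 93.6). Ugt8a in LPS-LPS 3 (80.2 CPM, others 68.4 to 70.02) and Plekhh1 in saline-LPS 1 (64.0 CPM, others 31.7 to 36.4) also lay above the rest.

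Lower than the rest were Ugt8a in saline-LPS 2 (65.0 CPM, others 100.5 to 107), Olig2 in saline-saline 4 (44.4 CPM, others 49.0 to 49.9), Olig2 in LPS-saline 2 (37.8 CPM, others 46.4 to 48.02) and Ermn in LPS-LPS 4 (28.6 CPM, others 35.4 to 36.5).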

How the results depend on the processing

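Without single libraries the members called lower numbered 0 to 7 in the prenatal comparison before pubertal saline, 0 to 4 before pubertal LPS, 7 to 18 averaged, 4 to 14 for both exposures against none and 0 to 1 for averaged pubertal LPS. In the same order shares of all genes called lower were 0% to 0.752%, 0% to 0.115%, 1.11% to 3.47% and 0.335% to 4.46%. For averaged pubertal LPS the share is not given here. Shares of all genes called lower are in parentheses below. Before pubertal saline the 2 members (0.0318%) became 6 with DESeq2 (0.84%) and 9 with the replicate block (0.662%). With the block and the GC content and length correction they became 11 (0.233%). They became 7 with Gabra6 as a covariate (0.8%), 7 with only the groups compared (0.579%), and 0 without LPS-LPS 1 and 3 (0%). Under 1 CPM of Gabra6 LPS-LPS 2 is alone of its group, and at 1 CPM or more saline-saline 4 is. For these splits only the members' median log2 difference is therefore given. Before pubertal saline it was -0.27 under 1 CPM and -0.11 at 1 CPM or more. Before pubertal LPS the 1 member (0.0477%) became 5 with DESeq2 (0.736%), 2 with no filter (0.0515%) and 4 with the block (0.334%). With block and correction the count was 3 (0.111%), and with the covariate 4 (0.599%). The count was 0 with the correction alone (0.0477%), with only the groups compared (0%) and without LPS-LPS 1 and 3 (0%). The median was -0.17 under 1 CPM of Gabra6 and -0.19 at 1 CPM or more. The averaged 14 (2.92%) became 9 with no filter (1.11%), 22 with block and correction (2.45%), and 5 without LPS-LPS 1 and 3 (0.22%). For the averaged comparison the median was -0.21 in the 8 libraries under 1 CPM of Gabra6 and -0.16 in the 8 at 1 CPM or more. The 11 of both exposures (2.29%) became 7 with no filter (0.949%), 18 with the block (5.05%) and 23 with block and correction (2.32%). They became 17 with the covariate (5.09%), 20 with only the groups compared (6.21%), and 0 without LPS-LPS 1 and 3 (0%). For both exposures the median was -0.32 under 1 CPM of Gabra6 and -0.18 at 1 CPM or more. Subsets hold fewer libraries; otherwise the cause was not tested.

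With the replicate block as the pairing, the averaged count was 20 (5.76% of all genes lower, against 2.92% as reported), and it was 19 with DESeq2 (6.85%), 17 with the correction (1.37%) and 21 with the covariate (6.29%). Same-numbered libraries correlated at -0.00 to 0.39 for both exposures against none and at 0.01 to 0.36 for pubertal LPS after prenatal saline. These comparisons were not counted as paired, because not every correlation passed a minimum of 0.1. That cut does not show whether the numbers are pairs by design.

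Log2 values near 0 changed sign in 9 members, none of them called under the setting that turned them. Mbp was at -0.014 without LPS-LPS 1 and 3. Mobp was at 0.0022 with no filter, 0.023 with the correction, 0.027 with block and correction, and -0.031 to 0.036 without single libraries. Gal3st1 was at 0.0053 under 1 CPM of Gabra6, and at 1 CPM or more Nkx6-2 was at 0.043, Sox10 at 0.0068, Olig1 at 0.096 and Olig2 at 0.13. Qdpr was at -0.0037 with the correction and -0.0014 with block and correction. Without single libraries Olig1 ran from -0.028 to 0.016, Olig2 from -0.039 to 0.018 and Ppp1r14a from -0.084 to 0.025. Over all alternatives 359 counts of calls stayed within 1.5 times the reported count and 67 did not. These include the comparisons and directions with 0 members called, where a count that stayed at 0 was scored as kept. The total therefore does not show how stable the counts above 0 were. Among single genes 1138 values kept direction and call, 206 lost the call, 48 gained it and 26 changed sign. Depth limits Trf (16 to 47 reads) and Pllp (96 or more).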
